A study of Arabidopsis thaliana with 12 samples.

Results

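The nuclear genes of plastid ribosomal proteins are 38 loci of Arabidopsis thaliana, chosen from a list of known plastid ribosomal proteins by matching each locus identifier to the locus column of the authors' processed table. All 38 were found there, and all 38 were among the 19152 genes tested from the single arrays. Of these, 25 encode proteins of the large ribosomal subunit and 12 proteins of the small subunit, while AT5G24490 was counted with neither. RNA came from leaves 3 and 4 of gvs1-1 and of Col, each sampled at 2 stages that the labels call DAE28 and DAE14, which they do not spell out. The groups were gvs1-1 at DAE28, Col at DAE28, gvs1-1 at DAE14 and Col at DAE14, with 3 biological samples in each and 12 one-colour Agilent arrays in all. Growth on soil lasted 23 or 37 days with 16 h of light and 8 h of dark a day, and leaves were collected 5 h into the light. The labels name no other allele, transgene or treatment, and they do not say which locus gvs1-1 affects. The question named by the series title is how transcripts differ between gvs1 and Col during leaf senescence.

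Chloroplasts keep a ribosome of bacterial type, with a large and a small subunit, which makes the proteins encoded in the plastid genome, among them the large subunit of Rubisco and the photosystem cores. Some of its proteins are encoded in the plastid genome and the rest in the nucleus, from where they are imported, so that the ribosome is assembled from products of both genomes. Most have a counterpart in Escherichia coli, and a few, the plastid-specific ribosomal proteins (PSRP), have none. Loss of many of them gives pale or embryo-lethal plants, and in senescing leaves the chloroplast is dismantled and its nitrogen exported.

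Symbols are those of the RefSeq gene table, and the 10 loci without one go by their locus. Signal is given as log2 of the processed spot signal relative to the 75th percentile of its array, so levels are compared between arrays for one gene and never between genes. That percentile ran from 1172 to 1577 at DAE28 and from 704 to 895 at DAE14. The 38 genes carried 66 probes, and all 66 were well above background on all 12 arrays. The gvs1-1 DAE28 arrays lay on slide 3, and the Col DAE28 arrays on slides 1 and 2. At DAE14 the gvs1-1 arrays lay on slides 2 and 3 and the Col arrays on slide 1. Slides 1 and 3 were scanned on one day and slide 2 on another, and fits with these batches as a block or within one batch are given where they bear on a result. The labels give leaf tissue, and the 5 mesophyll markers RBCS1A, RBCS3B, CA1, RCA and CAB1 were all measured.

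With age, all 38 genes fell in both genotypes. The log2 change from DAE14 to DAE28 had a median of -1.80 in gvs1-1, ranging from -2.75 in AT1G29070 to -0.84 in EMB3126. In Col the median was -2.73, ranging from -4.30 in RPL15 to -1.41 in EMB3126. Expressed as shares, the genes kept between 14.9% and 56.0% of their DAE14 level in gvs1-1 (median 28.6%), and between 5.08% and 37.7% in Col (median 15.1%). Each fall passed at an adjusted p under 0.05 (limma, Benjamini-Hochberg over all genes tested), where 30.0% of all genes fell in gvs1-1 and 36.3% in Col. The median over all genes was 0.058 in gvs1-1 and 0.012 in Col, and 8.40% and 7.02% of all genes, in that order, fell by at least as much as the median plastid ribosomal gene. The DAE28 and DAE14 arrays did not overlap for any of the 38 genes in either genotype, against 68.8% of all genes without overlap in gvs1-1 and 75.5% in Col. Within slide 3, which holds gvs1-1 arrays of both stages, the median change was -1.604, and within slide 1, which does so for Col, it was -2.88. With scan day as a block the medians were -1.63 in gvs1-1 and -2.95 in Col, and all 38 genes still fell. Each of these slides holds only 1 array of one of its stages, which is taken to vary like the others.

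**Figure D1:**
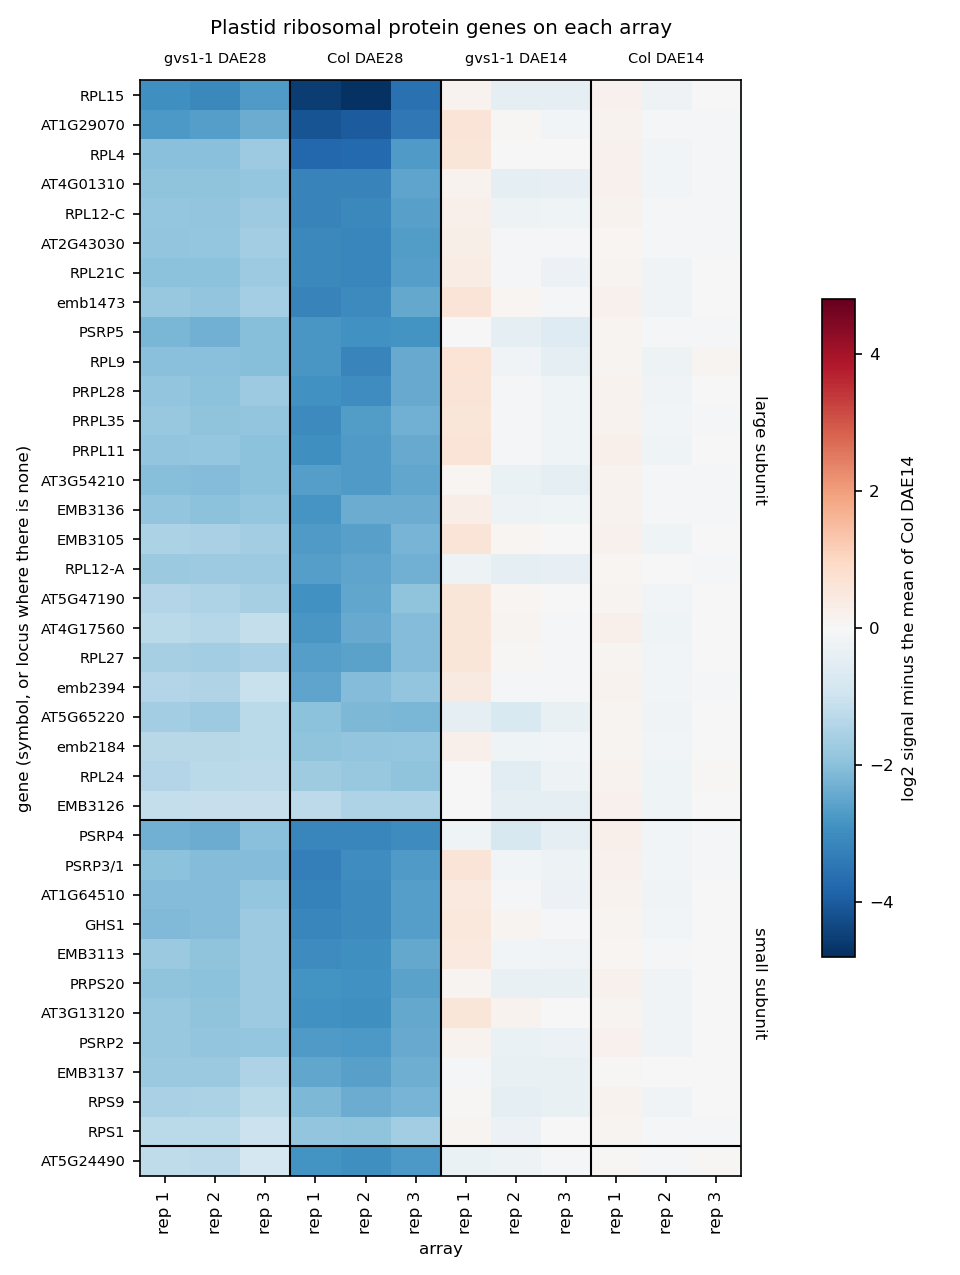
Heat map of 37 of the 38 genes (rows, by subunit and by age change in Col) on the 12 arrays (columns), coloured by log2 signal minus the gene's Col DAE14 mean. Blue cells fill the 6 DAE28 columns, and they are darkest for RPL15, AT1G29070 and RPL4 in Col, the 3 genes with the deepest falls there (-4.30, -3.86 and -3.41).

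The deepest falls in Col belonged to large-subunit genes. RPL15 encodes the counterpart of a protein that joins the Escherichia coli large subunit late in its assembly. It read 1.61, 1.43 and 1.81 in gvs1-1 at DAE28 and 4.71, 4.11 and 4.11 at DAE14. In Col it read -0.029, -0.19 and 0.95 at DAE28 and 4.74, 4.31 and 4.57 at DAE14. All 6 DAE28 arrays lay below all 6 DAE14 arrays, and every gvs1-1 array at DAE28 lay above every Col array of that stage, with Col replicate 3 the highest of its group. The log2 change was -2.70 ± 0.29 in gvs1-1 (SE, adjusted p = 3e-05) and -4.30 ± 0.29 in Col (adjusted p = 6e-07), so 15.4% of the DAE14 level was left in gvs1-1 and 5.08% in Col. AT1G29070 read 1.36, 1.47 and 1.73 in gvs1-1 at DAE28 and 4.71, 4.14 and 3.96 at DAE14. Its Col arrays read -0.057, 0.12 and 0.66 at DAE28 and 4.27, 3.99 and 4.04 at DAE14. The stages were again fully apart, by -2.75 ± 0.23 in gvs1-1 (adjusted p = 7.1e-06) and -3.86 ± 0.23 in Col (adjusted p = 2.9e-07). RPL4, whose Escherichia coli counterpart lines the exit tunnel of the ribosome, changed by -2.12 ± 0.27 in gvs1-1 and by -3.41 ± 0.27 in Col.

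RPL12-A and RPL12-C belong to the stalk, the flexible arm of the large subunit that recruits translation factors, and fell by less than the deepest group. RPL12-A read 4.74, 4.75 and 4.75 in gvs1-1 at DAE28 against 6.28, 6.05 and 6.12 at DAE14. In Col it read 3.88, 3.997 and 4.22 at DAE28 against 6.61, 6.49 and 6.43 at DAE14. The gvs1-1 DAE28 arrays were almost level with one another and stood above all Col arrays of that stage. The changes were -1.40 ± 0.11 in gvs1-1 and -2.48 ± 0.11 in Col (adjusted p = 4.6e-06 and 8.7e-08). Over 25 other settings and omissions the changes of RPL12-A ran from -1.59 to -0.83 in gvs1-1 and from -2.78 to -1.61 in Col. RPL12-C, a close copy of the same stalk gene, read 2.28, 2.25 and 2.39 in gvs1-1 and 0.95, 1.04 and 1.55 in Col at DAE28. At DAE14 its arrays read 4.38, 3.89 and 3.92 in gvs1-1 and 4.30, 4.10 and 4.03 in Col. The stages did not overlap, and the gene changed by -1.76 ± 0.18 in gvs1-1 and by -2.96 ± 0.18 in Col. Whether probes of these copies take up signal from one another was not tested. PRPL11, which sits at the base of the stalk, read 1.40, 1.44 and 1.33 in gvs1-1 at DAE28 against 3.91, 3.22 and 3.09 at DAE14. Its Col arrays read 0.36, 0.56 and 0.87 at DAE28 against 3.53, 3.07 and 3.26 at DAE14. Replicate 1 of gvs1-1 at DAE14 was the highest array of all 12 for this gene, and both stages stayed apart. Its changes were -2.02 ± 0.22 in gvs1-1 and -2.69 ± 0.22 in Col.

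The shallowest fall in both genotypes was that of a large-subunit gene. EMB3126, named for an embryo-defective mutant, read 3.31, 3.37 and 3.36 in gvs1-1 at DAE28 against 4.48, 4.04 and 4.01 at DAE14. In Col it read 3.20, 2.99 and 2.97 at DAE28 against 4.66, 4.26 and 4.46 at DAE14. It kept 56.0% of its DAE14 level in gvs1-1 and 37.7% in Col, the highest shares of the 38 genes in both. RPL24, whose Escherichia coli counterpart starts the assembly of the large subunit, and whose Arabidopsis mutant suppresses leaf variegation, read 2.88, 2.97 and 3.02 in gvs1-1 and 2.59, 2.45 and 2.36 in Col at DAE28. Its DAE14 arrays read 4.31, 3.79 and 4.02 in gvs1-1 and 4.46, 4.06 and 4.33 in Col. The stages were apart, the gvs1-1 arrays of DAE28 lay just above the Col ones, and RPL24 changed by -1.08 ± 0.15 in gvs1-1 and by -1.82 ± 0.15 in Col. AT5G65220 read 1.97, 1.90 and 2.36 in gvs1-1 at DAE28 and 3.19, 2.91 and 3.30 at DAE14, a change of -1.06 ± 0.15, the third smallest fall in gvs1-1.

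The other large-subunit loci followed for their role were AT4G17560 and AT5G47190, which have no symbol in the gene table. AT4G17560 read 1.95, 1.87 and 2.13 in gvs1-1 and 0.47, 0.85 and 1.16 in Col at DAE28. At DAE14 it read 3.82, 3.40 and 3.18 in gvs1-1 and 3.49, 3.05 and 3.22 in Col. All DAE28 arrays were below all DAE14 arrays, and the changes were -1.48 ± 0.21 in gvs1-1 and -2.43 ± 0.21 in Col. AT5G47190 read 1.83, 1.76 and 1.66 in gvs1-1 and 0.33, 0.73 and 1.304 in Col at DAE28. At DAE14 it read 3.83, 3.33 and 3.21 in gvs1-1 and 3.38, 3.10 and 3.25 in Col. The order of the groups was the same, with changes of -1.71 ± 0.23 in gvs1-1 and -2.46 ± 0.23 in Col.

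Among small-subunit genes, RPS1, the counterpart of the Escherichia coli protein that brings messenger RNA to the small subunit, read 2.08, 2.07 and 2.33 in gvs1-1 and 1.48, 1.45 and 1.70 in Col at DAE28. Its DAE14 arrays read 3.50, 3.08 and 3.35 in gvs1-1 and 3.52, 3.29 and 3.30 in Col. RPS1 had the shallowest fall of the 12 small-subunit genes in both genotypes, with -1.15 ± 0.13 in gvs1-1 and -1.83 ± 0.13 in Col.

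GHS1, known from a glucose-hypersensitive mutant, read 2.38, 2.43 and 2.77 in gvs1-1 and 1.37, 1.43 and 1.83 in Col at DAE28. At DAE14 it read 5.01, 4.61 and 4.45 in gvs1-1 and 4.62, 4.38 and 4.49 in Col. Its change in gvs1-1, -2.17 ± 0.18, was the deepest of the small subunit there, against -2.95 ± 0.18 in Col. EMB3113, named like EMB3126 for an embryo-defective mutant, read 0.98, 0.84 and 1.01 in gvs1-1 and -0.24, -0.16 and 0.32 in Col at DAE28. At DAE14 its arrays read 3.25, 2.64 and 2.62 in gvs1-1 and 2.87, 2.67 and 2.77 in Col. The gene changed by -1.90 ± 0.19 in gvs1-1 and by -2.80 ± 0.19 in Col, without overlap of the stages. The 4 plastid-specific genes, PSRP2, PSRP3/1 and PSRP4 of the small and PSRP5 of the large subunit, had medians of -1.78 in gvs1-1 and -2.92 in Col. In Arabidopsis, PSRP3/1, PSRP4 and PSRP5 are needed for normal plastid ribosomes, while PSRP2 is dispensable. PSRP4 had the deepest fall of the small subunit in Col, at -3.09 ± 0.17, against -1.76 ± 0.17 in gvs1-1.

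The other 14 large-subunit genes all fell between these limits. RPL27, whose Escherichia coli counterpart lies near the peptidyl transferase centre, changed by -1.80 ± 0.18 in gvs1-1 and -2.42 ± 0.18 in Col. Changes were -2.04 ± 0.27 in gvs1-1 and -2.81 ± 0.27 in Col for RPL9, and -1.88 ± 0.19 and -2.95 ± 0.19 for RPL21C. PRPL28 changed by -1.98 ± 0.22 in gvs1-1 and -2.76 ± 0.22 in Col, and PRPL35 by -1.97 ± 0.22 and -2.69 ± 0.22. Of these genes, 5 are named for embryo-defective mutants, and among them emb2184 fell least in both genotypes. The changes in gvs1-1 and Col were -1.99 ± 0.22 and -2.90 ± 0.22 for emb1473, -1.86 ± 0.17 and -2.54 ± 0.17 for EMB3136 and -1.81 ± 0.19 and -2.52 ± 0.19 for EMB3105. For emb2394 they were -1.39 ± 0.20 and -2.17 ± 0.20, and for emb2184 -1.29 ± 0.12 and -1.89 ± 0.12. Among loci without a symbol, AT4G01310 had -1.69 ± 0.21 in gvs1-1 and -3.00 ± 0.21 in Col, AT2G43030 -1.84 ± 0.15 and -2.96 ± 0.15, and AT3G54210 -1.81 ± 0.14 and -2.62 ± 0.14. PSRP5 changed by -1.80 ± 0.15 in gvs1-1 and -2.85 ± 0.15 in Col.

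A further 7 small-subunit genes are given here, and all fell. PSRP3/1 changed by -2.13 ± 0.22 in gvs1-1 and -3.00 ± 0.22 in Col, and PSRP2 by -1.69 ± 0.15 and -2.63 ± 0.15. PRPS20 changed by -1.69 ± 0.16 in gvs1-1 and -2.79 ± 0.16 in Col, and the loci AT1G64510 and AT3G13120 by -2.05 ± 0.21 and -2.08 ± 0.17 in gvs1-1 and -2.97 ± 0.21 and -2.76 ± 0.17 in Col. RPS9 and EMB3137 had shallower falls, with -1.21 ± 0.15 and -1.44 ± 0.12 in gvs1-1 and -2.26 ± 0.15 and -2.49 ± 0.12 in Col.

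**Figure D2:**
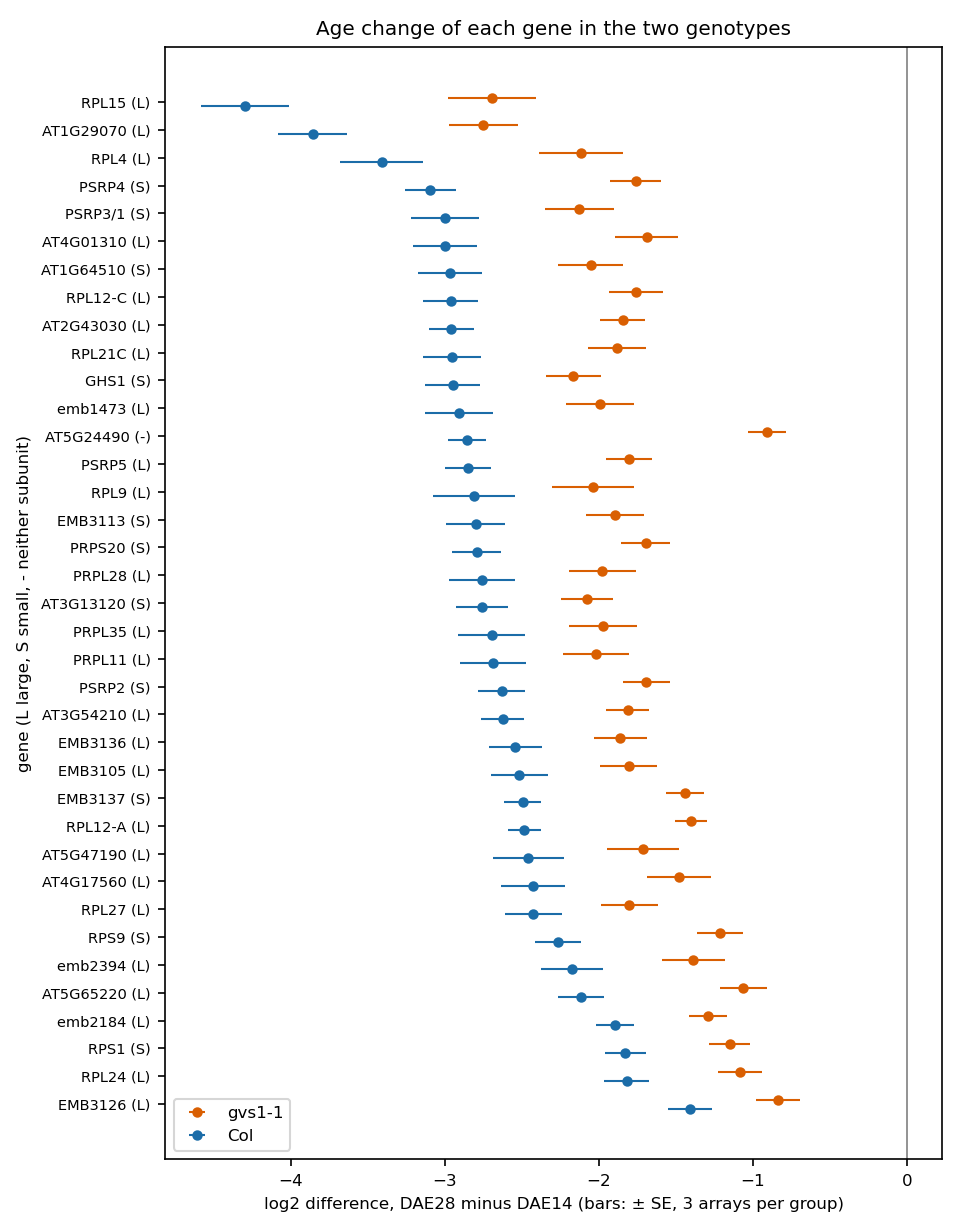
Log2 change from DAE14 to DAE28 of 37 of the 38 genes (rows, L large subunit, S small subunit) in gvs1-1 and in Col, with bars of ± SE from a fit over 12 arrays. Every point lies left of 0, and every gvs1-1 point lies right of its Col point, with the widest gap at AT5G24490 (-0.91 in gvs1-1 and -2.85 in Col).

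Both subunits fell by nearly the same amount. The median age change was -1.81 over the 25 large-subunit genes and -1.83 over the 12 small-subunit genes in gvs1-1, and -2.69 and -2.77 in Col. The large minus small difference of medians was thus 0.021 in gvs1-1 and 0.086 in Col, beside a spread of 0.052 between arrays of one group (SD, pooled over the 4 groups). Changes within the large subunit covered a wider range, from -2.75 to -0.84 in gvs1-1 and from -4.30 to -1.41 in Col, than those within the small subunit, from -2.17 to -1.15 in gvs1-1 and from -3.09 to -1.83 in Col. The gene table itself names the subunit of only 18 of the 38 genes, and the other 20 were placed from general knowledge. Only the 13 large and 5 small genes that the table names were then used, a choice made after seeing that table and the data. With these genes the difference turned to -0.19 in gvs1-1 and to -0.069 in Col, so no order of the subunits holds. The 9 genes with an embryo-defective symbol or synonym in the gene table, RPL4 among them, had medians of -1.81 in gvs1-1 and -2.52 in Col, beside -1.80 and -2.76 in the other 29.

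At DAE28, 37 of the 38 genes were higher in gvs1-1 than in Col, where 17.9% of all genes tested were higher. The median difference was 0.90 on the log2 scale, or 1.87-fold, against 0.039 over all genes, and 7.83% of all genes were higher by at least that much. All 12 small-subunit genes and 24 of the 25 large-subunit genes passed, with medians of 0.91 and 0.87. The gvs1-1 and Col arrays of DAE28 did not overlap in any of the 38 genes, as was so for 45.7% of all genes. After AT5G24490, the largest differences were those of RPL4 at 1.49 ± 0.27 (adjusted p = 0.0029) and RPL15 at 1.37 ± 0.29 (adjusted p = 0.0054). RPL4 read 2.56, 2.56 and 2.82 in gvs1-1 and 0.79, 0.84 and 1.85 in Col, with Col replicate 3 far above the other Col arrays and still below gvs1-1. The smallest that passed were RPL24 at 0.49 ± 0.15 (adjusted p = 0.026), AT5G65220 at 0.54 ± 0.15 (adjusted p = 0.02) and emb2184 at 0.58 ± 0.12 (adjusted p = 0.0058). AT5G65220 read 1.97, 1.90 and 2.36 in gvs1-1 and 1.66, 1.48 and 1.44 in Col, with gvs1-1 replicate 3 the highest. EMB3126 alone did not pass, at 0.29 ± 0.14 (adjusted p = 0.15), although its 3 gvs1-1 arrays also lay above its 3 Col arrays.

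The remaining genes described above were spread between those extremes. Of the stalk, RPL12-A differed by 0.72 ± 0.11 and RPL12-C by 1.12 ± 0.18, and PRPL11 at its base by 0.79 ± 0.22. In the small subunit GHS1 differed by 0.98 ± 0.18, EMB3113 by 0.97 ± 0.19 and RPS1 by 0.61 ± 0.13. The pair AT4G17560 and AT5G47190 differed by 1.16 ± 0.21 and 0.96 ± 0.23. Scanned on one day, the 3 gvs1-1 arrays against Col replicate 1, taken to vary like the other groups, gave a median of 1.11 with 35 genes past the threshold, and scan day as a block gave 1.14 with 35. No slide holds both genotypes at DAE28. With the slide as a block the median was 1.17 and 12 genes passed, where 4.29% of all genes were higher in that fit, against 15.8% with scan day as a block and 12.8% within scan day 1. Among the 12 were AT5G24490, GHS1 and AT4G17560, while RPL4, RPL15, RPL12-A, RPL12-C, PRPL11, RPL24, RPS1, EMB3113, AT5G47190, AT5G65220 and emb2184 did not pass. Of the 37 genes, 32 passed in each of the 12 fits that left out 1 array, and 5 did not. RPL9 lost its call in 8 of these fits (adjusted p between 0.053 and 0.15), keeping it without Col DAE14 replicate 2, Col DAE28 replicate 3 or gvs1-1 DAE14 replicate 1 or 3. EMB3136 lost it without Col replicate 1 or gvs1-1 replicate 3 at DAE28 (adjusted p 0.051 and 0.057). Leaving out either of Col replicates 2 and 3 or either of gvs1-1 replicates 2 and 3 at DAE28 ended the call of RPL24, with adjusted p between 0.068 and 0.076. AT5G65220 lost its call without Col replicate 2 or 3 or gvs1-1 replicate 3 (adjusted p between 0.056 and 0.065), and PRPL11 without Col replicate 1 or 2 or gvs1-1 replicate 2 (between 0.053 and 0.055).

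**Figure D3:**
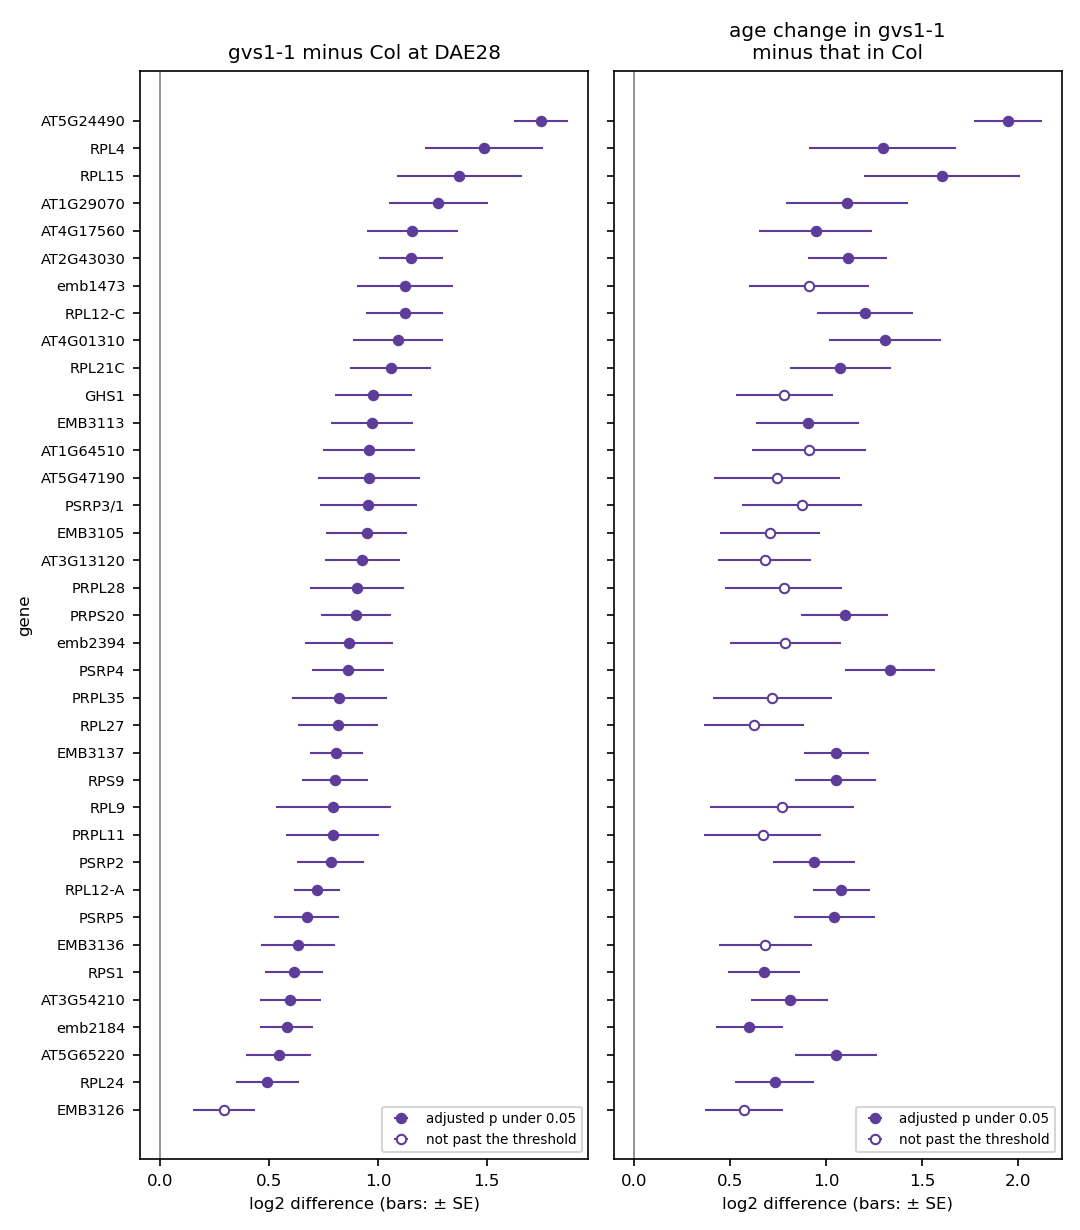
Left, log2 difference of gvs1-1 minus Col at DAE28 for 37 of the 38 genes. Right, gvs1-1 age change minus the Col age change, with bars of ± SE and filled points past an adjusted p of 0.05. All 37 points lie right of 0 in both panels, with AT5G24490 at the top (1.75 and 1.95) and EMB3126, at 0.29, at the bottom on the left.

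Markers of other leaf features were followed in the same groups, and not all of them moved as the ribosomal genes did. Unlike the ribosomal genes, the mesophyll markers already differed in median at DAE14. The guard cell, vascular and dividing cell markers had small negative median differences at DAE28, where that of the ribosomal genes was positive. Single markers went both ways. Of 4 vascular markers, 2 lay above 0, and 1 passed as higher and 1 as lower. Of 4 guard cell markers, 1 lay above 0 and 1 passed, as lower. Of 2 dividing cell markers, 0 passed. Of all genes 17.9% were higher and 15.2% lower. Such short lists are too small for a firm contrast with the ribosomal genes. The 5 mesophyll markers all fell in both genotypes, with medians of -0.92 in gvs1-1 and -2.06 in Col, where 30.0% and 36.3% of all genes fell. At DAE28, 3 of them were higher in gvs1-1 (17.9% of all genes), with a median difference of 0.58. At DAE14 their median difference was already -0.74, with 1 of them lower (0.266% of all genes). Their array medians relative to Col DAE14 lay between -1.58 and -1.33 in gvs1-1 at DAE28, between -2.17 and -1.98 in Col at DAE28, between -0.77 and -0.62 in gvs1-1 at DAE14 and between -0.079 and 0.16 in Col at DAE14. Of these, RCA was lower in gvs1-1 already at DAE14, with a difference of -0.85 ± 0.12 (adjusted p = 0.029). The senescence markers NYE1, which starts chlorophyll breakdown, and NAP, a senescence transcription factor, rose in both genotypes, NYE1 by 2.53 ± 0.18 in gvs1-1 and 4.28 ± 0.18 in Col and NAP by 2.14 ± 0.21 and 3.77 ± 0.21. At DAE28 NYE1 differed by -1.95 ± 0.18 and NAP by -1.61 ± 0.21, both lower in gvs1-1. All 4 epidermis and trichome markers fell in both genotypes, as did 3 of 4 vascular markers and both dividing cell markers that were measured. Of 4 guard cell markers, 2 fell in gvs1-1 and 1 fell and 1 rose in Col. Of all genes 30.0% fell in gvs1-1, and 36.3% fell and 35.7% rose in Col, so the guard cell counts in Col are not above the background. At DAE28 the median difference was 0.40 for epidermis and trichome, -0.18 for guard cell, -0.19 for vascular and -0.20 for dividing cell markers. The part of these markers in the ribosomal gene values was not tested. In whole leaves, fewer mesophyll cells and less of these transcripts per cell cannot be told apart.

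At DAE14, by contrast, 0 of the 38 genes passed, where 0.313% of all genes did in either direction (60 of 19152), and 4 had an unadjusted p under 0.05. The median difference was 0.0030, with 19 genes above 0 and 19 at or below it, and the quartiles were -0.22 and 0.16. The median moved with batch and with single arrays, to -0.17 with the slide as a block, -0.20 with scan day as a block and -0.21 within scan day 1, and to between -0.17 and 0.11 without 1 array, while 0 genes passed under each. The smallest adjusted p, 0.17, was shared by AT5G65220 and RPL12-A. AT5G65220 read 3.19, 2.91 and 3.30 in gvs1-1 and 3.79, 3.49 and 3.65 in Col, all gvs1-1 arrays being lower, for a difference of -0.51 ± 0.15. RPL12-A read 6.28, 6.05 and 6.12 in gvs1-1 and 6.61, 6.49 and 6.43 in Col, again without overlap, for a difference of -0.36 ± 0.11. Its 5 probes disagreed here, from -1.53 to 0.12, the widest span between probes of the 22 genes that have several. In all, 4 of the 38 genes had no overlap at DAE14, beside 27.8% of all genes. The spread between replicates was largest in gvs1-1 at DAE14, with a median SD of 0.31, against 0.16 in Col at DAE14, 0.10 in gvs1-1 at DAE28 and 0.26 in Col at DAE28.

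Within each group, 1 array was the highest of the 3 for most of the genes, which is a rank and no measure of distance. Replicate 1 of gvs1-1 at DAE14 was the highest of its group for 36 of the 38 genes, replicate 3 of gvs1-1 at DAE28 for 29, replicate 3 of Col at DAE28 for 33 and replicate 1 of Col at DAE14 for 37. Taken over the 38 genes, array medians relative to the Col DAE14 means lay between -1.90 and -1.75 in gvs1-1 at DAE28, between -2.88 and -2.42 in Col at DAE28, between -0.21 and 0.33 in gvs1-1 at DAE14 and between -0.14 and 0.16 in Col at DAE14. The DAE28 groups were thus apart in these medians, and the DAE14 groups overlapped. How often these arrays were the highest of their group over all genes was not counted. What sets their order was not tested.

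**Figure D4:**
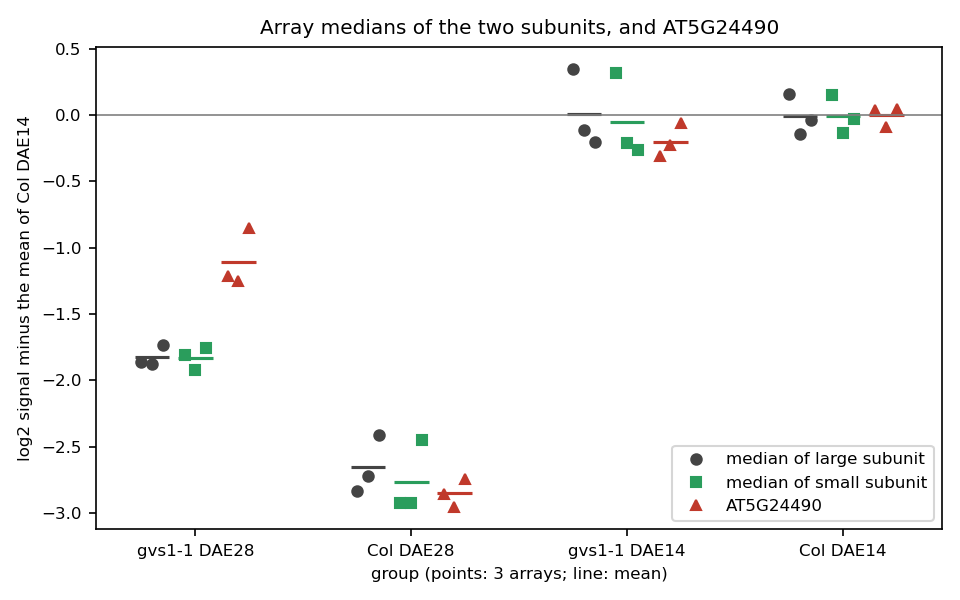
Each array's median over the large-subunit and the small-subunit genes, and AT5G24490, as log2 signal minus the Col DAE14 mean, in the 4 groups (points are the 3 arrays, lines their means). At DAE28 the means of the large-subunit and small-subunit medians are -1.83 and -1.83 in gvs1-1 and -2.66 and -2.77 in Col, and AT5G24490 lies above both subunits in gvs1-1 only.

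The age change differed between the genotypes in 22 of the 38 genes, where 9.91% of all genes passed in that direction. In each of the 22 the fall was smaller in gvs1-1. The interaction, which is the gvs1-1 age change minus the Col age change, had a median of 0.91 against 0.065 over all genes, and all 38 values were above 0, from 0.57 in EMB3126 to 1.95 in AT5G24490. An unadjusted p under 0.05 was reached by 36. Calls rest on the brightest probe of each gene. Among the 22 genes that have several probes, all probes passed in 6. Their probes spanned up to 1.22 on the log2 scale, with a median span of 0.16. By subunit, 7 of 12 small-subunit and 14 of 25 large-subunit genes passed, with medians of 0.91 and 0.81. The comparison is made of the same arrays as those at DAE28 and at DAE14, so its values are not separate evidence. On the log2 scale the change in gvs1-1 was 64.0% of that in Col at the median, with quartiles of 59.9% and 71.6%, and it was lowest at 31.7% in AT5G24490, followed by 50.2% in AT5G65220. After AT5G24490, the largest values that passed were 1.605 ± 0.40 in RPL15 (adjusted p = 0.024) and 1.33 ± 0.23 in PSRP4 (adjusted p = 0.0064). PSRP4, a plastid-specific protein of the small subunit, read 1.06, 0.97 and 1.35 in gvs1-1 and 0.23, 0.22 and 0.35 in Col at DAE28. At DAE14 it read 3.16, 2.58 and 2.91 in gvs1-1 and 3.60, 3.23 and 3.25 in Col, so that gvs1-1 was above Col at the late stage and below it at the early one, without overlap. The DAE14 difference of PSRP4 did not pass. Genotypes did not overlap for 45.7% of all genes at DAE28 and 27.8% at DAE14.

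RPL12-A and RPL12-C passed the interaction, at 1.08 ± 0.15 (adjusted p = 0.0032) and 1.20 ± 0.25 (adjusted p = 0.012). PRPL11 did not pass at 0.67 ± 0.30 (adjusted p = 0.15), nor did GHS1 at 0.78 ± 0.25 (0.055) and AT5G47190 at 0.74 ± 0.33 (0.14). The smallest values that passed were 0.60 ± 0.17 in emb2184, 0.68 ± 0.19 in RPS1 and 0.73 ± 0.21 in RPL24. This count moved with single arrays, scaling and batch. It was 12 without Col DAE14 replicate 1, Col DAE28 replicate 2 or gvs1-1 DAE14 replicate 2, 13 without gvs1-1 DAE28 replicate 3 or Col DAE14 replicate 3, and 37 without gvs1-1 DAE14 replicate 1. It was 13 after normexp background correction, where 2.84% of all genes passed in that direction. Centring arrays on their median gave 14, beside 5.89% of all genes. The count was 9 with the slide as a block and 13 with scan day as a block. Within scan day 1 it was 30, and the median was 1.25 there. The shares of all genes that passed in this direction were 3.97%, 3.53% and 5.84% with the slide as a block, with scan day as a block and within scan day 1. The median over the 38 genes stayed above 0 under each of these settings, and 12 genes passed in each of the 12 fits that left out 1 array. The other 10 of the 22 lost their call in some of those fits. RPL15 and RPL21C lost it in 5 (without Col DAE14 replicates 1 or 3, Col DAE28 replicate 2, gvs1-1 DAE14 replicate 2 or gvs1-1 DAE28 replicate 3), and AT3G54210 in 3 (without Col DAE14 replicate 1, Col DAE28 replicate 2 or gvs1-1 DAE14 replicate 2). RPL4, AT1G29070, EMB3113 and AT4G17560 lost it in 10, keeping it only without Col DAE28 replicate 3 or gvs1-1 DAE14 replicate 1. Calls of emb2184 and RPL24 were lost in 9, being kept without Col DAE14 replicate 2, Col DAE28 replicate 1 or gvs1-1 DAE14 replicate 1, and that of RPS1 in 8, being kept also without Col DAE28 replicate 3.

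AT5G24490 stood furthest from the other genes. It has no symbol in the gene table and 1 probe on the array. In gvs1-1 it read 1.502, 1.47 and 1.87 at DAE28 against 2.41, 2.49 and 2.66 at DAE14. In Col it read -0.14, -0.24 and -0.026 at DAE28 against 2.75, 2.63 and 2.77 at DAE14. Its fall in Col, -2.85 ± 0.12 (adjusted p = 8.9e-08), was near the median of the 38 genes, whereas in gvs1-1 it was -0.91 ± 0.12 (adjusted p = 0.00015), the second smallest. It thus kept 53.4% of its DAE14 level in gvs1-1 and 13.8% in Col. At DAE28 it was 3.36-fold higher in gvs1-1 (1.75 ± 0.12 on the log2 scale, adjusted p = 0.00018), and at DAE14 the difference was -0.20 ± 0.12 (adjusted p = 0.45). The interaction was 1.95 ± 0.18 (adjusted p = 0.002), and over 23 other settings and omissions it ran from 1.80 to 2.02 with adjusted p between 0.00056 and 0.025. Across the 38 genes, the age changes of the genotypes ran together, with Pearson r = 0.83 and Spearman rho = 0.70, and with r = 0.90 and rho = 0.76 without AT5G24490. These describe genes measured on shared arrays, which are not independent replicates.

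Other genes of plastid translation were set beside the ribosomal proteins. All 14 plastid translation factors fell in both genotypes, with medians of -1.22 in gvs1-1 and -1.63 in Col, where 30.0% of all genes fell in gvs1-1 and 36.3% in Col. RABE1b, the plastid elongation factor Tu, changed by -1.22 ± 0.11 in gvs1-1 and by -1.95 ± 0.11 in Col, and SCO1, the plastid elongation factor G, by -1.63 ± 0.14 and -1.93 ± 0.14. FUG1, the plastid initiation factor IF2, changed by -0.77 ± 0.12 in gvs1-1 and by -1.75 ± 0.12 in Col, and PDF1B, a peptide deformylase, by -1.63 ± 0.15 and -2.16 ± 0.15. At DAE28, 5 of the 14 were higher in gvs1-1 (median 0.42, with 17.9% of all genes higher), led by AT4G30690 at 1.19 ± 0.093 and FUG1 at 0.73 ± 0.12, and the interaction passed in 4 (9.91% of all genes), AT4G30690, FUG1, RABE1b and SVR3. SCO1 at DAE28 differed by 0.044 ± 0.14 (adjusted p = 0.85).

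Of 11 genes of plastid ribosome biogenesis, 3 fell and 2 rose in gvs1-1, against 9 that fell and 0 that rose in Col, with medians of -0.19 and -0.84. Among all genes 30.0% fell and 31.4% rose in gvs1-1, so the 3 and 2 of 11 there are not above the background, and 36.3% fell and 35.7% rose in Col. The 3 that fell in gvs1-1 were AT4G34730, EMB269 and emb1138, the last a plastid RNA helicase, at -0.68 ± 0.15 against -1.58 ± 0.15 in Col. The 2 that rose in gvs1-1 were emb2746, a plastid ribonuclease, at 0.47 ± 0.13 and EMB2730, another, at 0.39 ± 0.14. At DAE28, 7 of the 11 were higher in gvs1-1 (median 0.62, with 17.9% of all genes higher), and the interaction passed in 3 (9.91% of all genes), EMB2730, emb1138 and RIF10, the plastid polynucleotide phosphorylase. Of 20 genes for plastid RNA polymerases, sigma factors and polymerase-associated proteins, 19 were measured. In gvs1-1 12 fell and 1 rose, and in Col 15 fell and 1 rose, with medians of -0.51 and -0.83, against all-gene shares of 30.0% falling and 31.4% rising in gvs1-1 and 36.3% and 35.7% in Col. SIGF, a sigma factor, changed by -1.52 ± 0.16 in gvs1-1 and by -2.36 ± 0.16 in Col. At DAE28 7 were higher and 1 lower in gvs1-1 (median 0.36, with 17.9% of all genes higher and 15.2% lower), and the interaction passed in 4 (9.91% of all genes), PTAC6, MURE, PTAC3 and SIGF. Beyond the member list, PSRP6 changed by -1.81 ± 0.16 in gvs1-1 and by -2.69 ± 0.16 in Col and was higher in gvs1-1 at DAE28 by 0.88 ± 0.16, while PSRP3/2 had differences of -0.19 ± 0.16 in gvs1-1, which did not pass (adjusted p = 0.33), and -0.89 ± 0.16 in Col, which did.

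**Figure D5:**
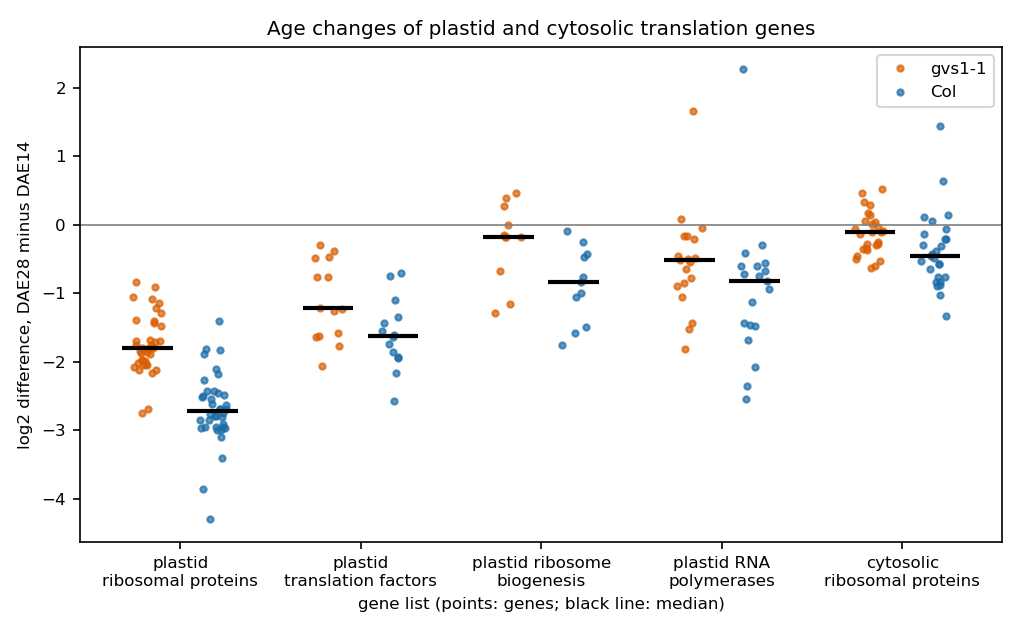
Log2 change from DAE14 to DAE28 of each gene (points) in 5 gene lists, in gvs1-1 and in Col, with black lines at the medians. The 38 plastid ribosomal protein genes have medians of -1.80 in gvs1-1 and -2.73 in Col, and the 27 cytosolic ones -0.10 and -0.46.

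Cytosolic ribosomal proteins, whose ribosomes translate nuclear messages including those of the 38 genes, were represented by 27 genes. In gvs1-1 4 fell and 1 rose (median -0.10), and in Col 15 fell and 2 rose (median -0.46). Of all genes 30.0% fell and 31.4% rose in gvs1-1, and 36.3% fell and 35.7% rose in Col, so the falling share of the list was below the background in gvs1-1 and above it in Col. SAG24, a cytosolic ribosomal protein gene named for its rise in senescence, changed by 0.53 ± 0.088 in gvs1-1 and by 1.45 ± 0.088 in Col. It was lower in gvs1-1 at DAE28, with a difference of -0.58 ± 0.088 and had the only interaction that passed in the list, -0.92 ± 0.12 (adjusted p = 0.0032). EMB3010 was the 1 gene of this list that was higher at DAE28, by 0.48 ± 0.16. Of all genes 17.9% were higher and 15.2% lower in gvs1-1 at DAE28, and the interaction was below 0 and passed in 8.75%. No difference between the cytosolic and the plastid list was tested.

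Ribosomal proteins encoded in the plastid genome could be followed for 15 of 24 genes, in a limma fit of the authors' deposited table of log2 values. There 12 of the 15 fell in gvs1-1 and all 15 in Col, with medians of -1.10 and -1.91, where 26.1% and 31.7% of the 21266 loci fell. In the same table the 38 nuclear genes had medians of -1.54 in gvs1-1 and -2.57 in Col, and all 38 fell in both. The plastid-encoded rpl14 changed by -1.18 ± 0.19 in gvs1-1 and by -2.55 ± 0.19 in Col. The 3 that did not pass in gvs1-1 were rpl32 at -0.088 ± 0.076, rpl20 at -0.19 ± 0.10 and rps4 at -0.21 ± 0.19. At DAE28 11 of the 15 were higher in gvs1-1 (median 0.80, with 15.0% of all loci higher), and the interaction passed in 8 (median 0.77, with 8.29% of all loci), beside 38 and 30 of the nuclear genes. Labelling kits of this type prime on poly(A) tails, which stable plastid transcripts mostly lack, and the part this has in the plastid-encoded values was not tested.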

How the data were processed

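RNA of 12 leaf samples, 3 in each of 4 groups, was hybridised to one-colour Agilent arrays. Per the file headers, spots were read with Agilent Feature Extraction 11.5.1.1, and the deposited processed signal is a background-corrected intensity on a linear scale. The authors also deposited a table of log2 values per locus, with its normalization not stated in the sources used here. That table was used as an alternative, and as the only source for plastid-encoded genes.

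The intensity was taken to log2 and each array's 75th percentile subtracted. Probes were named by the locus their systematic name gives, directly or as a RefSeq transcript in the gene table. Of 43603 probes, 34348 matched a locus, and 166 with outlier flags were left out. Probes counted only where all 3 arrays of at least 1 group flagged them well above background, and the brightest probe stood for a gene. limma 3.58.1 in R 4.3.3 (lmFit, eBayes) fitted 4 group means to all 12 arrays and 5 comparisons, two-sided, with Benjamini-Hochberg adjustment over 19152 genes and a threshold of 0.05. The fit was also run on simulated data with 200 of 19152 genes changed in Col DAE28. It recovered 13% of them at 1.5-fold, 62.5% at 2-fold and 91.5% at 4-fold, with false calls between 3.10% and 6.15%. With age in Col 13786 genes were called, so the setting differs from the data and these rates need not hold here. P-values set each difference against the spread between samples within groups, and the number of arrays limits precision.

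The members and lists were chosen with earlier results of these data known. Named genes are a panel of known roles, the 3 members with the highest and the 3 with the lowest difference among those that passed in each comparison (at DAE14, the 2 smallest adjusted p), members that did not pass, and up to 3 genes per companion list with the smallest adjusted p. Companion genes that make up a count of 5 or fewer, and examples beyond these, were named after their values were seen. Alternatives were other background correction, scaling, probe filters, probe averaging, the authors' table, slide, scan day or replicate number as a block, single batches, and leaving out each array. The spot files gave no mean signal, so the median signal was used for normexp (offset 50). One member enters every count and median but is not reported by name here or drawn by name, and 1 plastid-encoded gene is likewise counted only. Promoter motifs and sequences were not analysed here.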

Additional observations from a re-analysis of the deposited data

Results flagged for a closer look

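In 22 of the plastid ribosomal protein genes the age change differed between gvs1-1 and Col by the limma interaction test, with a smaller fall in gvs1-1 each time, where 9.91% of all genes passed in that direction. The count was 9 with the slide as a block and 12 to 37 when 1 array was left out, and 12 of the 22 passed in each of those 12 fits. The all-gene share was 3.97% with the slide as a block and 5.12% to 14.1% when 1 array was left out. Each value is the log2 age change of gvs1-1 less the log2 age change of Col. The differences were 1.95 in AT5G24490, 1.605 in RPL15, 1.33 in PSRP4, 1.31 in AT4G01310 and 1.295 in RPL4. They were 1.20 in RPL12-C, 1.11 in AT2G43030, 1.11 in AT1G29070, 1.098 in PRPS20, 1.08 in RPL12-A and 1.08 in RPL21C. Next were 1.05 in EMB3137, 1.05 in AT5G65220, 1.05 in RPS9 and 1.04 in PSRP5. The lowest were 0.95 in AT4G17560, 0.94 in PSRP2, 0.90 in EMB3113, 0.81 in AT3G54210, 0.73 in RPL24, 0.68 in RPS1 and 0.60 in emb2184. Groups of 3 arrays are too small for a test of single outlying arrays.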

How the results depend on the processing

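Of 188 counts, medians and subunit differences under other settings, 148 stayed within the tolerance (counts within 1.5 times the reported count, so interaction counts of 15 to 31 beside 22, and medians and differences within 1 SD between arrays of a group, 0.21 and 0.052). The fall of all 38 genes with age held in both genotypes under every setting, and 0 of 38 genes passed at DAE14 under each. Over the 12 fits that left out 1 array, the medians ranged from -2.86 to -2.65 with age in Col, from -1.92 to -1.62 with age in gvs1-1, from 0.82 to 1.04 at DAE28, from -0.17 to 0.11 at DAE14 and from 0.75 to 1.103 for the interaction. The counts ranged from 33 to 37 at DAE28 and from 12 to 37 for the interaction. All-gene shares in the same direction ranged from 13.3% to 18.4% and from 5.12% to 14.1% over these fits. With the replicate number as a block the interaction passed in 18 genes (8.53% of all genes in that direction), and EMB3113 and AT4G17560 lost their calls. Between the genotypes at DAE14, deviations of same-numbered samples correlated at 0.51, 0.38 and -0.10 for replicates 1, 2 and 3. At DAE28 they correlated between -0.27 and -0.14, and between stages of a genotype from -0.085 to 0.081. Whether the replicate numbers pair the samples is not settled by these values, and the main fit treats the samples as unpaired. The interaction count was 13 with normexp, 14 with median centring, 15 with no filter on dim probes, 31 with quantile normalization, 30 with the authors' table, 9 with the slide as a block, 13 with scan day as a block and 30 within scan day 1. At DAE28 the slide as a block gave 12, and EMB3126 passed in the authors' table (0.39, adjusted p = 0.034). Medians moved to -2.95 with age in Col (scan day as a block), to -1.48 and -1.54 with age in gvs1-1 (quantile, authors' table), to 1.17 and 1.14 at DAE28 (slide, scan day as a block), to -0.21 at DAE14 (scan day 1) and to 1.25 for the interaction (slide or scan day as a block, scan day 1). Quantile normalization moved the age median of all genes to 0.12 in both genotypes, and median centring to 0.18 in Col. The fits that gave 1.25 for the interaction share the same estimate, which rests on single arrays of Col DAE28 and gvs1-1 DAE14. The cause of these moves was not tested.

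The large minus small subunit difference of medians had no stable sign. With age in Col it was 0.16 with quantile normalization, 0.010 with scan day as a block and 0.074 to 0.12 without 1 array. With age in gvs1-1 it was 0.13 with quantile normalization, 0.15 in the authors' table, 0.085 with scan day as a block, 0.097 with the slide as a block or within scan day 1 or slide 3, and -0.035 to 0.083 without 1 array. At DAE28 it was 0.027 with normexp, 0.010 with the mean of probes, 0.070 in the authors' table, 0.013 with the slide as a block, 0.079 with scan day as a block, 0.13 within scan day 1 and -0.11 to -0.0060 without 1 array. At DAE14 it was 0.095 with quantile normalization, 0.15 in the authors' table and -0.019 to 0.072 without 1 array. For the interaction it was 0.097 with normexp, 0.046 with the mean of probes, -0.035 in the authors' table, 0.070 with the slide or scan day as a block and within scan day 1, and -0.11 to -0.019 without 1 array. With only the genes whose subunit the gene table names, a choice made after seeing the data, it was -0.069 with age in Col, -0.19 with age in gvs1-1, 0.18 at DAE14 and -0.27 for the interaction.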
